A study of Homo sapiens with 10 samples.

Results

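The glycolysis and hypoxia genes described here are 41 genes that carry glucose and lactate across the cell membrane, catalyse glycolysis, set its flux, sense oxygen or are known to be induced when oxygen is low. Their rows were taken by symbol from a table of normalized counts with 19590 genes, and all 41 symbols were found. RNA-Seq had been performed in MV4-11, an established human acute myeloid leukemia cell line of monocytic type with a FLT3 internal tandem duplication. The control group held 4 libraries from MV4-11 cells that had received the control vector, and the IRF8 KO group held 4 libraries from MV4-11 cells in which the transcription factor IRF8 had been targeted by lentiviral CRISPR. The control columns of the table are headed WT, and they were taken as the control libraries of the labels because the labels give no other RNA-Seq group. All cells had been infected and selected with puromycin, and the knockout lines were clones grown by limiting dilution from 2 guide RNAs. The labels do not say from which clone each library came, nor whether replicates were separate cultures, so p-values measure the spread between these libraries only. IRF8 ChIP-Seq samples of the same cells were not analysed here.

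Glycolysis splits glucose into pyruvate in the cytosol. Its opening steps, from hexokinase to aldolase, consume ATP, and its later steps, from GAPDH to pyruvate kinase, return it. Lactate dehydrogenase turns pyruvate into lactate, whereas pyruvate dehydrogenase feeds it to the mitochondria unless pyruvate dehydrogenase kinases (PDKs) switch it off. HIF-1, the pair of HIF1A and ARNT, is held low by prolyl hydroxylases (EGLN genes) while oxygen is present. When oxygen falls it binds short sites with the core ACGTG or GCGTG and raises transcripts for glucose uptake, glycolysis and PDK1. Many leukemia cells use glycolysis strongly also in oxygen, and in myeloid cells HIF-1 takes part in the inflammatory response.

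The libraries held 39560072 to 65519047 reads on genes, with a median of 52233344. IRF8 itself, the targeted gene, had 36891, 15192, 43016 and 22535 normalized counts in control replicates 1 to 4 and 6377, 2401, 12903 and 7819.7 in IRF8 KO replicates 1 to 4, on average 25.1% of control (log2 fold change -2.11, SE 0.51, adjusted p = 0.0222 in limma). Its groups did not overlap. In control, replicates 1 and 3 were above replicates 2 and 4, whereas in IRF8 KO replicate 4 was above replicate 1. Of 10 myeloid markers, all were detected, and PTPRC, ITGAM and MPO were called higher in IRF8 KO. Markers of other cell types were mostly low. Summed counts over 3 T cell genes were 0.863 to 2.41 in control and 4.92 to 20.3 in IRF8 KO, and those over 3 erythroid genes were 0 to 2.71. The epithelial keratin KRT18 had 451 to 539 normalized counts in control and fell to between 4.26 and 9.48 in IRF8 KO (adjusted p = 6.60e-06 in limma). In bulk RNA, fewer cells of a kind and less RNA per cell cannot be told apart. The part of these marker differences in the results below was not tested.

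Promoter sequence is shown first for 4 members, chosen because they hold the core of a HIF site and because the RNA of 2 was higher and that of 2 lower in replicates 1 and 3 than in replicates 2 and 4. The windows of PGAM1 and PKM, which were also higher in replicates 1 and 3, held no such core. GPI, TPI1 and HIF1A also did not overlap between the sets and held a core, but are not shown. SLC2A3 and BNIP3L had no window. Of the members called below in IRF8 KO against control, PDK3, PFKFB3, MXRA7 and ERO1A held a core and SLC2A1 did not. Each line is the 250 bases before the transcription start from RefSeq (GRCh38.p14), 5′ to 3′ on the strand of the gene, and where RefSeq gives a gene several starts the window with most matches is shown. Capitals mark ACGTG or GCGTG on either strand, and where matches on both strands overlap, as in CACGTG, they form 1 stretch. PDK1 (chr2:172555840-172556089, plus strand) and P4HA1 (chr10:73096867-73097116, minus strand) had lower RNA in replicates 1 and 3. LDHA (chr11:18394313-18394562, plus strand) and PGK1 (chrX:78103998-78104247, plus strand) had higher RNA there.
PDK1: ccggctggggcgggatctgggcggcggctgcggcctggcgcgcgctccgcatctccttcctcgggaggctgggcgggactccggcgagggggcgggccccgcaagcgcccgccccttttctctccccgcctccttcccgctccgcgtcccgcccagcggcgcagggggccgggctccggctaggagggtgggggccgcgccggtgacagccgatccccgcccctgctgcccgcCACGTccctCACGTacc
P4HA1: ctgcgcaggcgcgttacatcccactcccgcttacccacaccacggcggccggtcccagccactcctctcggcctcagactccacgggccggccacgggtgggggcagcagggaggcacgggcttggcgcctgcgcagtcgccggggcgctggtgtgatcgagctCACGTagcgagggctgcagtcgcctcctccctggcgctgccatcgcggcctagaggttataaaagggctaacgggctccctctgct
LDHA: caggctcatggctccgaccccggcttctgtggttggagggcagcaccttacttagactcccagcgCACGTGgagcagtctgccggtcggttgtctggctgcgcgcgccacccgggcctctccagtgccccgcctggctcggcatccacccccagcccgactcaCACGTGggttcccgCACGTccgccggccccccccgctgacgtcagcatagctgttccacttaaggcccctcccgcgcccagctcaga
PGK1: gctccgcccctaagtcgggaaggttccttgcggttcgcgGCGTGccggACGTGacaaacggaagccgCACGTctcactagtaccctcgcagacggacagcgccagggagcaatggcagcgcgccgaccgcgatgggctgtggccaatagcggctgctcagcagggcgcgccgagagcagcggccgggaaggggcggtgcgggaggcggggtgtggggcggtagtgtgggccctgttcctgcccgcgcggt
LDHA and PGK1 each hold 3 marked stretches, PDK1 holds 2, and P4HA1 holds 1. Promoter windows were given for 36 of the 41 members, 66 windows in all, and 59.1% of these held at least 1 match. The share was 53.9% of 15117 windows of tested genes and 43.2% of all 35116 windows, so that a match is common. Counted by gene, 80.6% of the 36 members and 63.6% of 10360 tested genes held a match in any of their windows. A match is a description of letters and does not show binding.

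The loss of IRF8 was compared first. Of the 41 members, 38 averaged at least 10 normalized counts over the 8 libraries and were tested, and 5 were called at an adjusted p below 0.05 (limma on log2(normalized count + 1), Benjamini-Hochberg adjustment over 13110 genes). PFKFB3, ERO1A and MXRA7 rose in IRF8 KO, and SLC2A1 and PDK3 fell. Over all genes tested, 18.2% were called, 8.65% higher and 9.56% lower, against 13.2% of the members (3 of 38 higher, 2 of 38 lower). These shares differed in the other direction in DESeq2, which called 13 of 38 members beside 26.0% of all genes, and with the replicate block described below. The thresholds of the study, p below 0.01 and a 2-fold change, were applied here to limma before adjustment, whereas the study used DESeq2. PFKFB3 alone of the 38 passed them, beside 10.9% of all genes tested. In DESeq2 the changes of HK3, ALDOC, ENO2 and BNIP3 were also above 2-fold at an adjusted p below 0.05. The median log2 fold change of the 38 members was 0.062 and that of all genes tested was -0.00094. The groups did not overlap in 9 of 38 members, beside 25.3% of all genes tested.

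**Figure D1:**
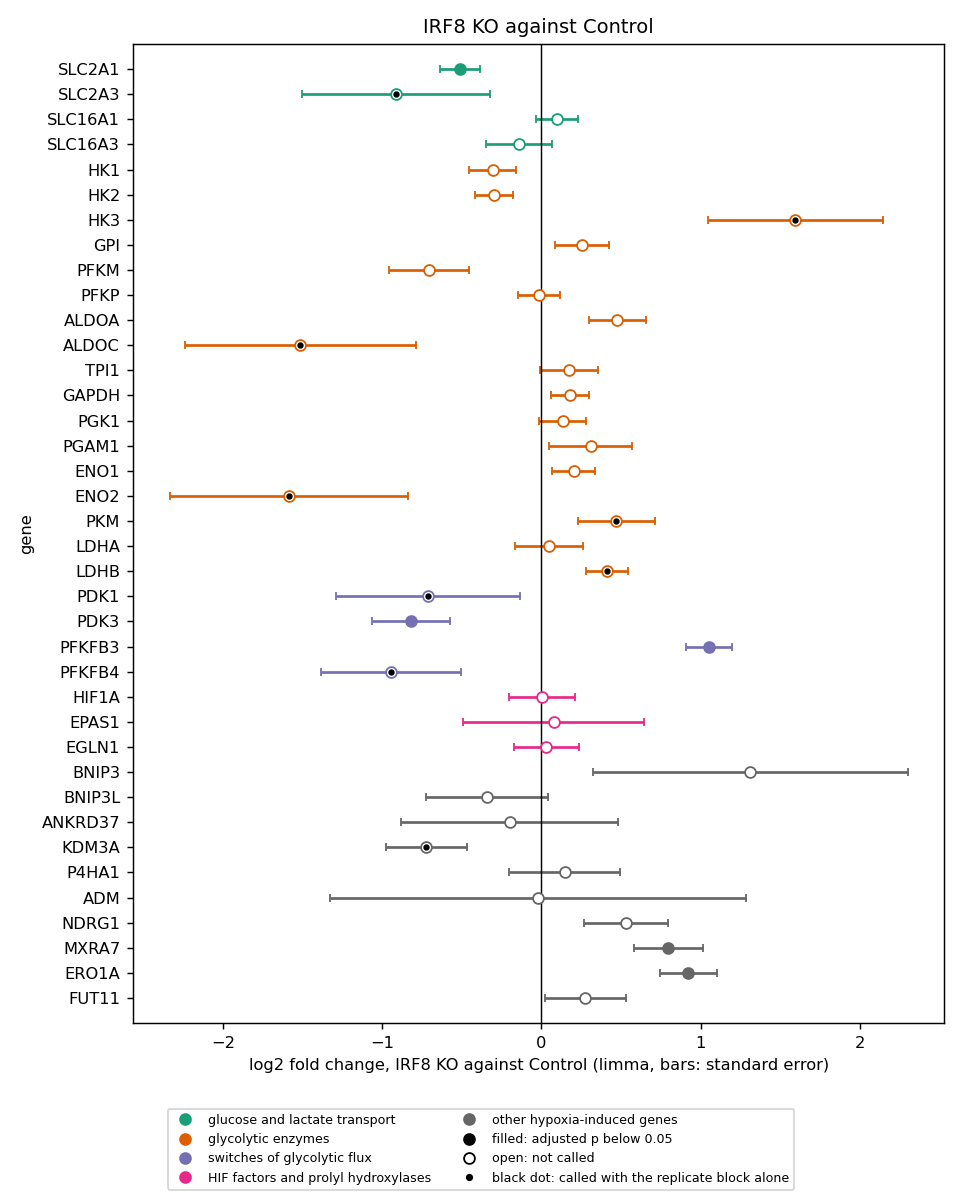
Log2 fold change (x axis) of each of the 38 tested members (y axis, ordered by role) in IRF8 KO against control, with its standard error from limma (4 libraries per group). Filled points mark the 5 genes called at an adjusted p below 0.05, and black dots mark the 9 genes called only with the replicate number as a block.

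Same-numbered control and knockout libraries deviated together from their group means, and so did differently numbered libraries within replicates 1 and 3 and within replicates 2 and 4. The replicate number was also fitted as a block. With this block 14 of 38 members were called, 6 higher and 8 lower, beside 28.7% of all genes tested. All 5 genes called without it were among them. The 9 added were HK3, PKM and LDHB, which were higher in IRF8 KO, and SLC2A3, ALDOC, ENO2, PDK1, PFKFB4 and KDM3A, which were lower. Their adjusted p-values with the block lay between 0.00795 (SLC2A3) and 0.0484 (ENO2). Without the block they lay between 0.0628 (LDHB) and 0.453 (PDK1).

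The glucose transporter SLC2A1 (GLUT1), the main carrier of basal glucose uptake in many cells, fell in IRF8 KO. Control replicates 1 to 4 had 6109.9, 7148, 5864 and 6125 normalized counts, and IRF8 KO replicates 1 to 4 had 3683, 4613, 4867 and 4606. Every knockout library was below every control library, with means of 6312 ± 570.1 normalized counts in control and 4442 ± 521 in IRF8 KO (SD, n = 4). The log2 fold change was -0.51 (SE 0.13, adjusted p = 0.0234 in limma, 0.0151 with the block). It was -0.50 within replicates 1 and 3 and -0.52 within replicates 2 and 4. The adjusted p reached 0.0560 when single libraries were left out, and it rose above 0.05 in 5 of these 8 fits (without control replicate 1, 2 or 4, or IRF8 KO replicate 1 or 4).

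SLC2A3 (GLUT3), a transporter with high affinity for glucose, had 1824, 7759.6, 1560.4 and 5298 normalized counts in control replicates 1 to 4 and 907, 2919, 1249 and 2805 in IRF8 KO. The replicate sets differed more than the genotypes: replicates 2 and 4 were above replicates 1 and 3 in both. Its log2 fold change of -0.91 (SE 0.59) had an adjusted p of 0.337 in limma and 0.00795 with the block. SLC2A3 and its close copy SLC2A14, listed at 28.6% to 37.0% of its value, can share reads, so their levels are uncertain. The lactate carriers SLC16A1 (MCT1) and SLC16A3 (MCT4) were not called. SLC16A1 had 8512 ± 1197 normalized counts in control and 9058 ± 751 in IRF8 KO, and SLC16A3 had 11918 ± 659 normalized counts in control and 11203 ± 3693 in IRF8 KO (SD, n = 4).

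None of the 17 glycolytic enzyme genes was called without the block (limma, adjusted p below 0.05), beside 18.2% of all genes tested. On the recovered reads edgeR called 1 of them (HK3), beside 2370 of 13110 genes tested. DESeq2 called 6 (HK3, PFKM, ALDOA, ALDOC, ENO2 and LDHB), beside 26.0% of all genes. In limma the log2 fold changes of the 17 genes ranged from -1.59 (ENO2) to 1.60 (HK3), with a median of 0.17, and 11 of 17 were above 0. Among the abundant genes of the pathway, the log2 fold changes of GAPDH, ENO1, PGK1 and LDHA were small. Those of PGAM1 (0.31), LDHB (0.41) and PKM (0.47) were larger. GAPDH, the dehydrogenase that opens the ATP-yielding steps, had 166958 ± 8373 normalized counts in control and 190173 ± 25037 in IRF8 KO (SD, n = 4; log2 fold change 0.18, SE 0.12). ENO1, the main enolase, had a log2 fold change of 0.20 (SE 0.13), PGK1, which makes ATP, of 0.13 (SE 0.15), and LDHA, the lactate dehydrogenase subunit that HIF-1 induces, of 0.0476 (SE 0.21).

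Several of these enzymes exist as isoenzymes, and members of a family took different values. HK1, the widely expressed hexokinase, and HK2, an inducible one, had log2 fold changes of -0.31 (SE 0.15) and -0.30 (SE 0.12), and neither was called. HK3, a hexokinase known from myeloid cells, had 50.9 to 85.7 normalized counts in control and 71.7 to 522 in IRF8 KO. Its log2 fold change was 1.60 (SE 0.55, adjusted p = 0.0799 in limma, 0.0261 with the block), and the groups overlapped at IRF8 KO replicate 2. The difference was 2.48 within replicates 1 and 3 and 0.71 within replicates 2 and 4.

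The muscle type phosphofructokinase PFKM had 2601 ± 852 normalized counts in control and 1549 ± 287 in IRF8 KO (log2 fold change -0.70, adjusted p = 0.0899 in limma), whereas the platelet type PFKP had 10245 ± 1462 normalized counts in control and 10077 ± 762 in IRF8 KO (SD, n = 4). The aldolases differed in sign. ALDOA had 233 to 243 normalized counts in control and 249 to 379.7 in IRF8 KO, without overlap (log2 fold change 0.48, adjusted p = 0.104 in limma). The ALDOA locus overlaps another protein-coding entry of RefSeq (LOC112694756), so its count is uncertain. The loci of SLC16A3, HK3, PFKM, TPI1, PFKFB4, BNIP3 and ANKRD37 also overlap protein-coding genes, which can affect their counts too. ALDOC, an aldolase known from brain and from hypoxic cells, had 2519 ± 2081 normalized counts in control and 776 ± 634 in IRF8 KO (SD, n = 4), a log2 fold change of -1.51 and an adjusted p of 0.194 in limma and 0.00808 with the block. ENO2, the neuronal enolase, had a log2 fold change of -1.59 (adjusted p = 0.186 in limma, 0.0484 with the block).

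At the closing steps, LDHB, the subunit that favours the way from lactate to pyruvate, had 11111 to 13474 normalized counts in control and 15459 to 20716 in IRF8 KO, and the groups did not overlap. Its log2 fold change was 0.41 (SE 0.13, adjusted p = 0.0628 in limma, 0.0258 with the block). Any gene whose groups do not overlap has p = 0.0286 in the exact two-sided permutation test, the smallest that 4 against 4 libraries allow. That p therefore adds nothing to the non-overlap, which 25.3% of all genes tested showed. PKM, pyruvate kinase, had a log2 fold change of 0.47 (adjusted p = 0.222 in limma, 0.0126 with the block).

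Both directions were seen among the switches of glycolytic flux. PFKFB3 makes the sugar bisphosphate that most strongly activates phosphofructokinase. It had 1370.0, 1712, 1389.6 and 1826 normalized counts in control replicates 1 to 4 and 3636, 2787, 3385 and 3214 in IRF8 KO replicates 1 to 4. Every knockout library was above every control library, and the mean was 2.07-fold that of control (1574 ± 229.5 normalized counts in control and 3256 ± 357 in IRF8 KO, SD, n = 4). The log2 fold change was 1.05 (SE 0.14, adjusted p = 0.00141 in limma). Leaving out single libraries gave adjusted p-values of 0.00199 to 0.00640. The difference was 1.35 within replicates 1 and 3 and 0.76 within replicates 2 and 4, with adjusted p-values of 0.000441 and 0.00595 in limma.

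PFKFB4, a second enzyme of this family, had 1233 ± 775 normalized counts in control and 586 ± 209 in IRF8 KO (SD, n = 4, log2 fold change -0.94, adjusted p = 0.181 in limma, 0.0381 with the block). PDK3, which like PDK1 switches off pyruvate dehydrogenase, fell. It had 689, 494, 679 and 608 normalized counts in control replicates 1 to 4 and 467, 438, 236 and 298 in IRF8 KO replicates 1 to 4. The groups did not overlap, with a log2 fold change of -0.82 (SE 0.24, adjusted p = 0.0485 in limma). It was -1.04 within replicates 1 and 3 and -0.60 within replicates 2 and 4 (adjusted p = 0.0541 and 0.247 in limma). This call lay at the threshold: it was lost in 5 of 8 fits that left out a library (control replicate 1, 3 or 4, IRF8 KO replicate 3 or 4), in edgeR, without the trend, and with either filter alternative. PDK1, the kinase that HIF-1 induces, had 855, 3023, 882 and 2682 normalized counts in control replicates 1 to 4 and 841, 1833, 404 and 1363 in IRF8 KO. As for SLC2A3, the replicate sets separated its values rather than the genotypes. Its log2 fold change of -0.71 (SE 0.58) had an adjusted p of 0.453 in limma and 0.0291 with the block.

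**Figure D2:**
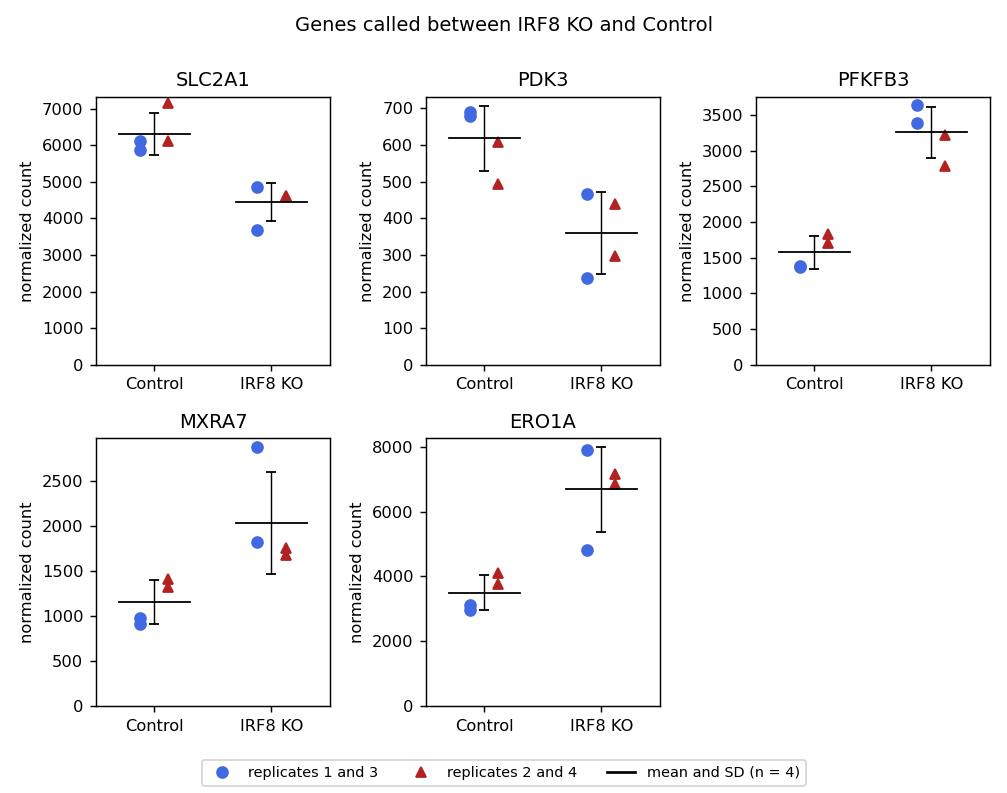
Normalized counts (y axis, from 0) of the 5 called members in the 4 control and 4 IRF8 KO libraries, with bars for the mean and SD and symbols for the replicate set. In each gene the values of the groups do not overlap, and IRF8 KO is lower for SLC2A1 and PDK3 and higher for PFKFB3, MXRA7 and ERO1A.

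Of the oxygen sensors and HIF subunits 3 were tested, and 0 were called in limma, edgeR or DESeq2 or had an unadjusted p below 0.05 in limma. HIF1A, the oxygen-regulated subunit of HIF-1, had 5353 ± 1071 normalized counts in control and 5407 ± 1319.5 in IRF8 KO (SD, n = 4), a log2 fold change of 0.00291 with a SE of 0.21. EPAS1 (HIF-2α) had 52.1 ± 21.0 normalized counts in control and 62.4 ± 37.6 in IRF8 KO, and EGLN1, the main prolyl hydroxylase, had 623 ± 86.5 normalized counts in control and 649 ± 170.5 in IRF8 KO. EGLN3, the prolyl hydroxylase that is itself induced by HIF, was below the filter and not tested. It had 1.61, 22.4, 3.22 and 6.59 normalized counts in control replicates 1 to 4 and 0 reads in each IRF8 KO library, where a count of 0 allows up to 3 reads of the 39560072 to 65519047 in a library.

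Of the 12 other hypoxia-induced genes, 10 were tested and ERO1A and MXRA7 were called, both higher. Over all genes tested, 18.2% were called and 8.65% were called higher. ERO1A, the oxidase that forms disulfide bonds in the endoplasmic reticulum, had 3132, 3779, 2963 and 4115 normalized counts in control replicates 1 to 4. In IRF8 KO replicates 1 to 4 it had 7910.3, 6837, 4821 and 7166. All knockout libraries were above all control libraries, on average 1.91-fold (log2 fold change 0.92, SE 0.18, adjusted p = 0.00842 in limma). The difference was 1.02 within replicates 1 and 3 and 0.83 within replicates 2 and 4 (adjusted p = 0.0121 and 0.0348 in limma).

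MXRA7 had 919, 1324, 985 and 1409 normalized counts in control replicates 1 to 4 and 2876, 1674, 1824 and 1756 in IRF8 KO replicates 1 to 4. The groups did not overlap, and IRF8 KO replicate 1 stood above the other knockout libraries. The log2 fold change was 0.80 (SE 0.22, adjusted p = 0.0347 in limma). It was 1.27 within replicates 1 and 3 but 0.33 within replicates 2 and 4, where the adjusted p was 0.296 in limma. Without control replicate 1 or 3, or IRF8 KO replicate 1, 3 or 4, the adjusted p rose above the threshold, up to 0.0904.

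The remaining hypoxia-induced genes were not called in limma, whereas DESeq2 called BNIP3 and KDM3A. KDM3A, a histone H3K9 demethylase, had 4095 to 8061 normalized counts in control and 2356 to 4094 in IRF8 KO without overlap (log2 fold change -0.72, adjusted p = 0.0841 in limma, 0.00928 with the block, 0.0288 in DESeq2). BNIP3, a mitophagy receptor, had 29.0, 34.5, 27.9 and 29.2 normalized counts in control replicates 1 to 4 and 17.1, 20.1, 204 and 449.6 in IRF8 KO replicates 1 to 4. IRF8 KO replicates 3 and 4 were above and replicates 1 and 2 below all control libraries, and the adjusted p was 0.416 in limma (log2 fold change 1.31) and 0.0181 in DESeq2 (log2 fold change 2.52). NDRG1, a stress-response gene, had 11679 ± 4762 normalized counts in control and 15840.1 ± 881 in IRF8 KO (SD, n = 4; adjusted p = 0.207 in limma). FUT11 had 248 ± 91.6 normalized counts in control and 288 ± 31.7 in IRF8 KO, and the low gene ANKRD37 had 28.8 ± 23.9 normalized counts in control and 21.5 ± 11.5 in IRF8 KO (SD, n = 4). CA9, the carbonic anhydrase used as a hypoxia marker in solid tumours, had 0 reads in all 8 libraries, and the collagen prolyl hydroxylase P4HA2 had 0 to 0.942 normalized counts in control and 0 to 2.95 in IRF8 KO.

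The replicate numbers were then compared. In both groups, replicates 1 and 3 were set against replicates 2 and 4. The labels do not say what these numbers share, and the split was known from earlier results of these data, so it is described here without a test. It was wide across the transcriptome: 81.2% of all genes tested did not overlap between the sets in control and 49.4% in IRF8 KO, and the members were at 34 and 21 of 38. Over all 8 libraries 11 of 38 members did not overlap. Of these, 6 were higher in replicates 1 and 3, beside 12.1% of all genes tested, and 5 were lower, beside 10.6%.

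**Figure D3:**
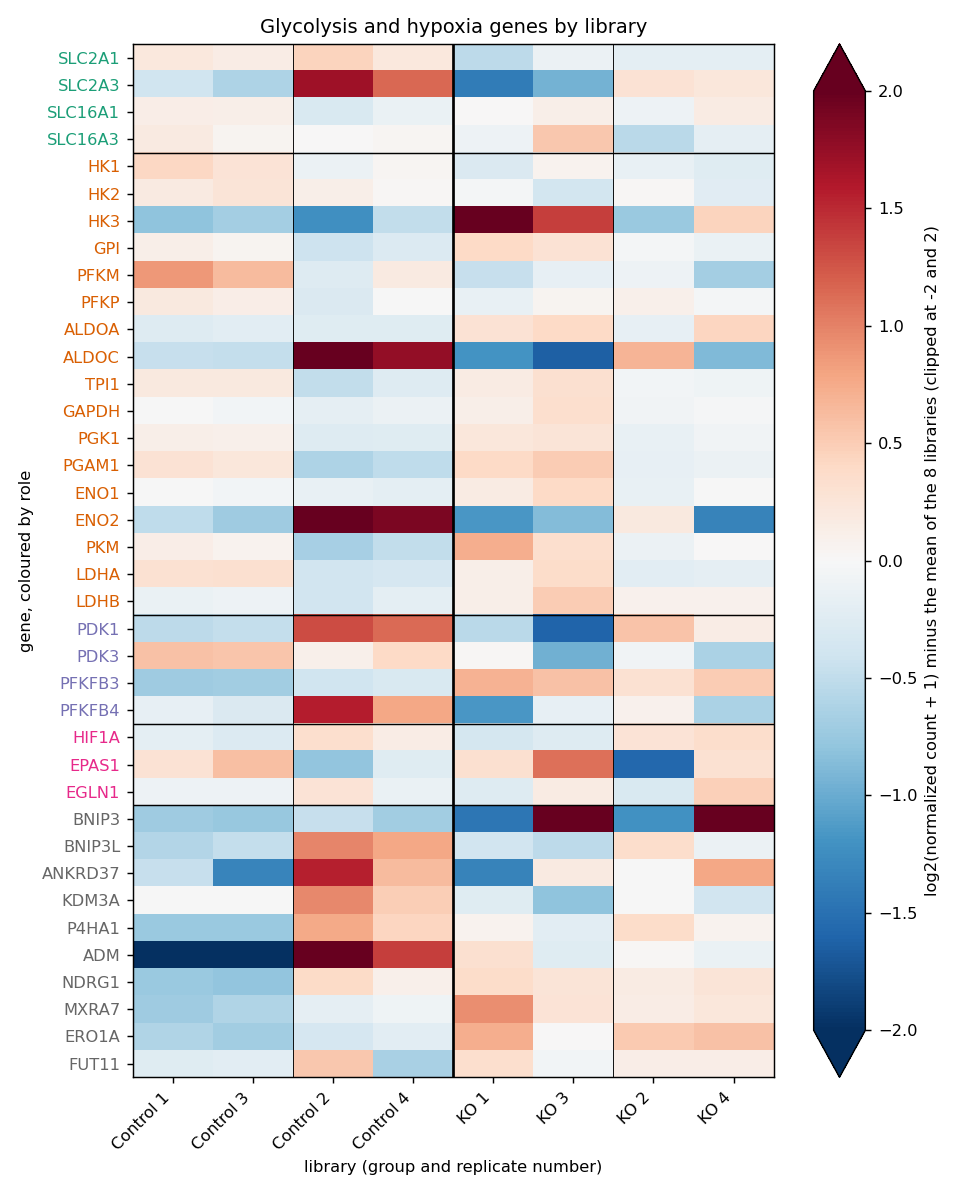
Each of the 38 tested members (rows, coloured by role) in the 8 libraries (columns), as log2(normalized count + 1) minus the mean of that gene over the libraries, clipped at -2 and 2. The control replicates 2 and 4 are red for SLC2A3, ALDOC, ENO2, PDK1, PFKFB4, BNIP3L, ANKRD37, KDM3A, P4HA1 and ADM, and pale blue for most abundant glycolytic enzymes.

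The 6 genes that were higher in replicates 1 and 3 were all glycolytic enzymes: GPI, TPI1, PGK1, PGAM1, PKM and LDHA. PGAM1, phosphoglycerate mutase, had 32697 and 31479.9 normalized counts in control replicates 1 and 3 and 17481 and 18802 in control replicates 2 and 4. In IRF8 KO it had 35353 and 37988 in replicates 1 and 3 and 23830.5 and 24846 in replicates 2 and 4. The ratio between the sets was 1.77-fold in control and 1.51-fold in IRF8 KO. PGAM4, a near-identical copy, was listed at 39.4% to 41.6% of PGAM1 in every library, so the split of reads between them is uncertain.

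PKM had 84547, 48894, 81225 and 54932 normalized counts in control replicates 1 to 4 and 127230.3, 71125, 97477 and 77195 in IRF8 KO replicates 1 to 4. IRF8 KO replicate 1 was the highest library. LDHA had 61831, 38389, 61999.7 and 39474 in control replicates 1 to 4 and 53950.3, 43039, 64566 and 44212 in IRF8 KO replicates 1 to 4. TPI1, triosephosphate isomerase, had 40916, 25336, 40912 and 29918 in control and 39958, 34511, 44431 and 33579 in IRF8 KO, in the same order. In each of these 3 genes the low values were those of replicates 2 and 4 in both groups. GPI, glucose-6-phosphate isomerase, had 24619.7, 17019, 23584 and 18669.8 in control replicates 1 to 4 and 29756, 21997, 27648 and 20682 in IRF8 KO replicates 1 to 4. PGK1 had 41601, 32038, 41252 and 32577 in control and 44732, 34661, 46017 and 36429.6 in IRF8 KO, again in the order of replicates 1 to 4. The differences of all 6 enzymes between the sets stayed under 2-fold, from 0.36 (PGK1) to 0.82 (PGAM1) on the log2 scale in control and from 0.31 (TPI1) to 0.59 (PGAM1) in IRF8 KO.

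The 5 genes that were lower in replicates 1 and 3 were SLC2A3, PDK1, HIF1A, BNIP3L and P4HA1. Apart from HIF1A, their differences in control were larger than those of the 6 enzymes. SLC2A3, whose values are given above, was 3.86-fold higher in replicates 2 and 4 in control and 2.66-fold in IRF8 KO. PDK1 was 3.29-fold higher there in control and 2.57-fold in IRF8 KO. BNIP3L (NIX), a mitophagy receptor, had 2678 and 2892 normalized counts in control replicates 1 and 3 and 7920.0 and 6894 in control replicates 2 and 4. In IRF8 KO the sets lay closer, with 3094 and 2799 in replicates 1 and 3 and 5145 and 3699 in replicates 2 and 4.

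P4HA1, a subunit of the collagen prolyl hydroxylase, had 2039 and 2033 normalized counts in control replicates 1 and 3 and 5773 and 4570.2 in control replicates 2 and 4. In IRF8 KO it had 3562 and 2937 in replicates 1 and 3 and 4367 and 3582 in replicates 2 and 4, so that in the knockout the sets almost met. HIF1A had 4588 and 4359 in control replicates 1 and 3, 6631 and 5833 in control replicates 2 and 4, 4119 and 4432 in IRF8 KO replicates 1 and 3 and 6371 and 6705 in IRF8 KO replicates 2 and 4. Unlike in the other 4, its difference was no smaller in IRF8 KO, at -0.48 in control and -0.61 in IRF8 KO on the log2 scale.

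**Figure D4:**
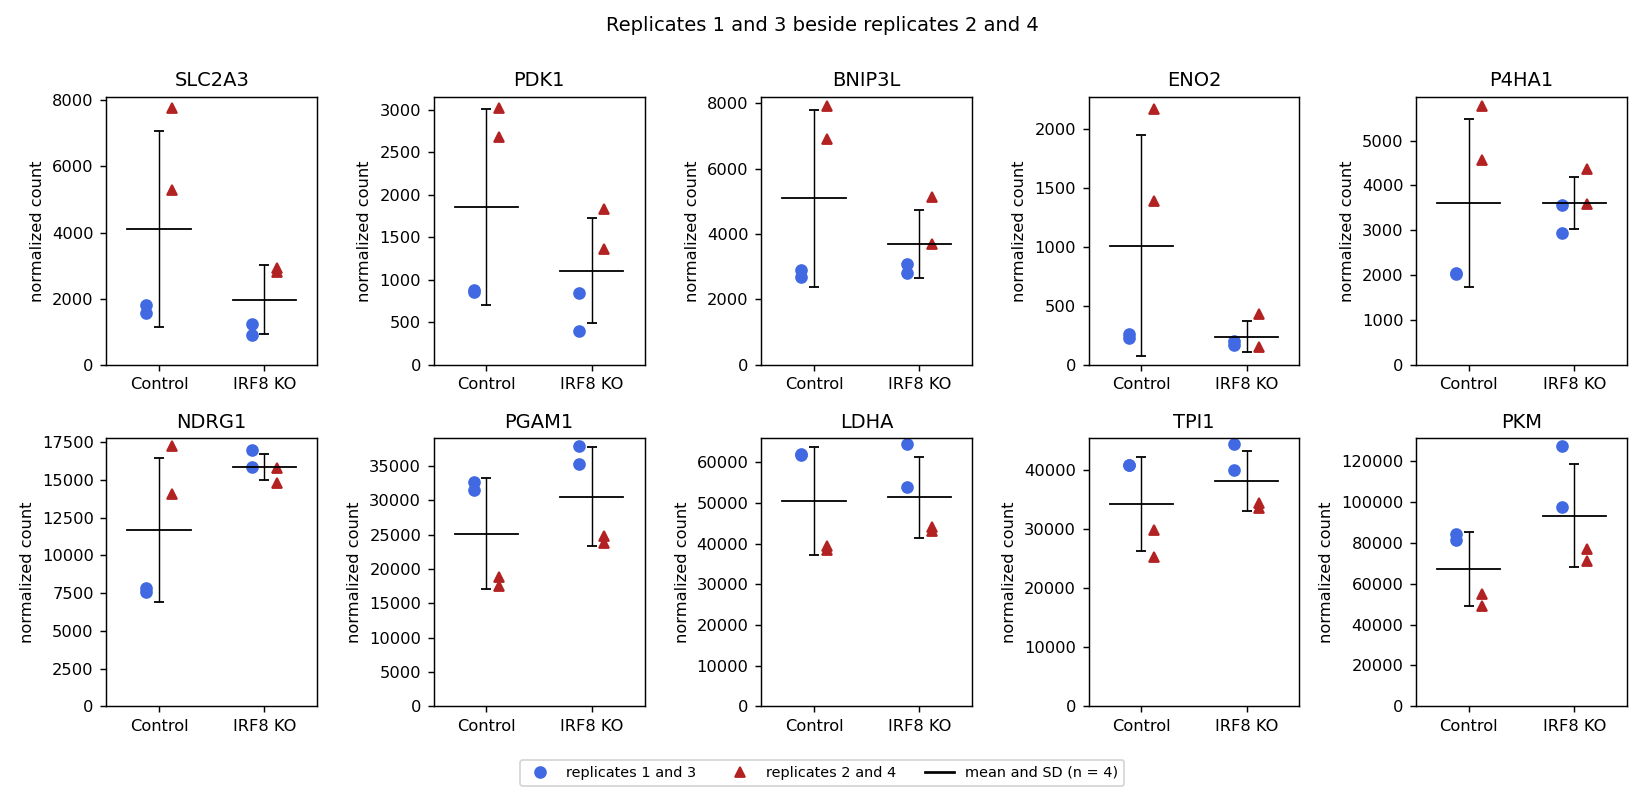
Normalized counts (y axis, from 0) of 10 members in the 4 control and 4 IRF8 KO libraries, with bars for the mean and SD. SLC2A3, PDK1, BNIP3L and P4HA1 are higher in replicates 2 and 4 (triangles) and PGAM1, LDHA, TPI1 and PKM in replicates 1 and 3 (circles) in both groups, whereas ENO2 and NDRG1 differ by set in control and overlap or nearly so in IRF8 KO.

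In control, 10 of 38 members were at least 2-fold lower in replicates 1 and 3, beside 10.8% of all genes tested, and 0 were at least 2-fold higher, beside 5.35%. The 10 were SLC2A3, ALDOC, ENO2, PDK1, PFKFB4, BNIP3L, ANKRD37, P4HA1, ADM and NDRG1. In IRF8 KO, SLC2A3, ALDOC and PDK1 were at least 2-fold lower, 3 of 38 beside 6.17% of all genes tested. ENO2 had 265 and 229 normalized counts in control replicates 1 and 3, 2166 and 1384 in control replicates 2 and 4, and 149 to 431 over all 4 IRF8 KO libraries. The set difference of ENO2 was -2.81 in control and -0.45 in IRF8 KO on the log2 scale. ALDOC had 777, 4898, 769 and 3632 in control replicates 1 to 4 and 466, 1716, 343 and 581 in IRF8 KO replicates 1 to 4. NDRG1 had 7833, 17236, 7590.2 and 14056 in control replicates 1 to 4 and 14797 to 16952 over all IRF8 KO libraries. ADM, the vasodilator peptide adrenomedullin, was low, with 0.804, 94.9, 0 and 18.8 in control replicates 1 to 4 and 5.42 to 8.53 in IRF8 KO.

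**Figure D5:**
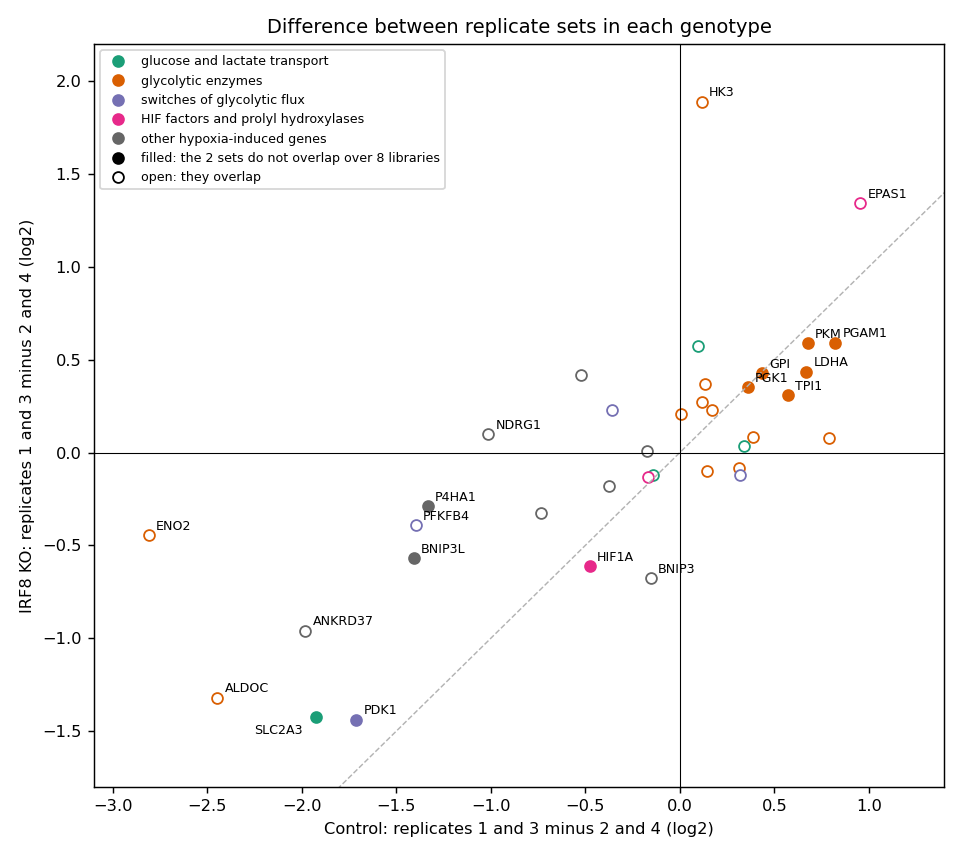
Difference between replicates 1 and 3 and replicates 2 and 4 (log2) in control (x axis) and in IRF8 KO (y axis) for 37 tested members, coloured by role; ADM, at -5.02 and 0.10, is outside the axes and the dashed line marks equal differences. The 6 enzymes that do not overlap between sets lie at the upper right, and SLC2A3 and PDK1 at the lower left.

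By role, the median difference (replicates 1 and 3 minus 2 and 4) of the 17 glycolytic enzymes was 0.32 in control and 0.27 in IRF8 KO on the log2 scale. That of the 10 tested other hypoxia-induced genes was -0.87 in control and -0.24 in IRF8 KO. Over all genes tested the medians were -0.025 and -0.013. Among the enzymes, 13 of 17 were higher in replicates 1 and 3 in control without overlap and 2 of 17, ALDOC and ENO2, were lower, beside 39.2% and 42.0% of all genes tested.

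Other genes of these pathways, 96 in 5 lists, were examined in the same fit. Of the 79 tested, 7 rose and 5 fell in IRF8 KO, beside 18.2% called over all genes, and with the replicate block 12 were higher and 13 lower, beside 28.7% called over all genes. In the pentose phosphate pathway, which branches from glycolysis to make NADPH and ribose, 2 of 10 rose and 1 fell. PGD, 6-phosphogluconate dehydrogenase, rose from 17592 ± 4778 to 53516 ± 14942 normalized counts (SD, n = 4; log2 fold change 1.59, adjusted p = 0.00297 in limma). TKT rose too (log2 fold change 0.65), and H6PD, which makes NADPH in the endoplasmic reticulum, fell from 3122 ± 1714 to 936 ± 330.4 (log2 fold change -1.64, adjusted p = 0.0357 in limma).

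Of 13 tested further glycolysis genes, BSG, the chaperone of the lactate carriers, rose (log2 fold change 0.95), and PFKL, the liver type phosphofructokinase (-0.76), and PGM1 fell. PGM1, which links glucose 1-phosphate from glycogen to glycolysis, went from 828 ± 197 to 338 ± 36.1 normalized counts (SD, n = 4; log2 fold change -1.27, adjusted p = 0.00267 in limma). Of 11 genes for the entry of pyruvate into mitochondria, MPC1, a subunit of the mitochondrial pyruvate carrier, rose (log2 fold change 0.84, adjusted p = 0.00795 in limma). Of 9 oxygen sensing genes and HIF partners, CITED2, an inhibitor of HIF-1, rose (log2 fold change 0.71, adjusted p = 0.0399 in limma).

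Of 36 further hypoxia-induced genes, the collagen-modifying PLOD1 (log2 fold change 0.62) and P4HB (0.92) rose, and PPFIA4 (-1.40) and ZFP36 (-1.16), which destabilizes inflammatory mRNAs, fell. In this list 8 genes were lower and 1 was higher in replicates 1 and 3 without overlap over the 8 libraries, beside 10.6% and 12.1% of all genes tested. The following 2 were chosen after their values were seen. VEGFA, the endothelial growth factor, had 3598, 30239, 3300.0 and 21475 normalized counts in control replicates 1 to 4 and 2794, 12813, 1740.1 and 11885 in IRF8 KO replicates 1 to 4. DDIT4 (REDD1), an mTOR inhibitor induced by hypoxia and other stress, had 988, 20161, 839 and 19107 in control and 1069.9, 18367, 1751 and 20334 in IRF8 KO, in the same order. For both genes the sets differed more than any member of the 41 with at least 100 normalized counts on average, at -4.43 and -3.82 for DDIT4 and -2.89 and -2.48 for VEGFA on the log2 scale.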

How the data were processed

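RNA-Seq libraries of 4 control and 4 IRF8 KO replicates were used. The authors aligned reads with RNA-Star, counted them per gene with featureCounts and normalized them with DESeq2, and per the labels the builds of the series are hg19 and hg38. The deposited signal per gene is the number of reads over 1 size factor per library. Whole reads were recovered from it for 100% of the values (tolerance 0.01 reads). At an adjusted p below 0.05, edgeR called 2370 and DESeq2 3402 genes on these reads, and limma 2387. The normalized counts held columns of libraries only, and 0 columns were left out. Fold changes and p-values of the authors were not used. The ChIP-Seq samples were not analysed here.

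Limma 3.58.1 in R 4.3.3 was run with a trended, robust variance on log2(normalized count + 1), with Benjamini-Hochberg adjustment. The fit held the 13110 genes that averaged 10 or more and had first been tested on simulated data. The simulated reads held a genotype difference but none between replicate sets, so that test does not cover the split between these sets. A fold change on this scale understates that of low genes. Alternatives were a pseudocount of 5, no filter or a mean of at least 100, upper quartile scaling, no trend, count tests of the recovered reads in edgeR 4.0.16 and in DESeq2 1.42.0, the replicate block, the replicate set as a covariate or as separate contrasts, and each library left out. For pairing, deviations of same-numbered control and IRF8 KO libraries from their group means correlated at 0.37 to 0.50 across genes, above the limit of 0.1 in every pair. Differently numbered libraries within replicates 1 and 3 or within 2 and 4 correlated at 0.40 to 0.47, and those across these sets at -0.47 to -0.37. The source of this pairing is the data, since neither labels nor methods say what a number marks, and in 3 of 4 controls the best match was the own number.

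The members, the role groups, the other lists and the split of replicates were chosen with earlier results of these data known. By rule, values of every library are given for called members and for members whose replicate sets do not overlap, other members are given by means or ranges, and of the other lists genes past the thresholds of the study are named. Further named genes, namely BNIP3, ADM, EGLN3, ENO2, ALDOC, NDRG1, PFKL, BSG, MPC1, CITED2, TKT, PLOD1, P4HB and the markers, were given such values after these were seen. Leaving out libraries for the replicate sets and the other lists was added after seeing the data. The list of B cell markers is not reported here.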

Additional observations from a re-analysis of the deposited data

Results flagged for a closer look

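Of 76 groups of 4 libraries (38 members in 2 groups), 3 held a value far from the others by Dixon's criterion, and chance gives about 1 in 20. These were LDHB at 20716 normalized counts in IRF8 KO replicate 3, EGLN1 at 753 in control replicate 2 and MXRA7 at 2876 in IRF8 KO replicate 1. MXRA7 without that library had a log2 fold change of 0.62, with an adjusted p of 0.0633 in limma.

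In 5 members a difference had opposite signs in control and IRF8 KO, or in the replicate sets, without overlap on either side. This was not tested, and sign changes of further members are given below. Replicates 1 and 3 minus 2 and 4 on the log2 scale were -0.36 in control and 0.23 in IRF8 KO for PFKFB3, -1.01 and 0.0996 for NDRG1, and -0.52 and 0.42 for MXRA7, in each case with no overlap of the sets within a group. IRF8 KO minus control was 0.67 within replicates 1 and 3 and -0.38 within replicates 2 and 4 for P4HA1, and 2.54 and -2.58 for ADM, the latter on counts near the limit of the filter.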

How the results depend on the processing

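The count of 5 members called was 13 in DESeq2, 14 with the replicate block and 17 with the replicate set as a covariate. It was 9 within replicates 1 and 3 and 10 within replicates 2 and 4. With the thresholds of the study applied to limma, the count was 1. Over all genes tested, 18.2% were called in limma without the block, 26.0% in DESeq2 and 28.7% with the block. The share was 10.9% with the thresholds of the study applied to limma. No such share is given for the covariate or within either set, so these member counts do not show a gain particular to the members. The count of members called was 4 or 5 with the other pseudocount, filters, scaling, without the trend and in edgeR. Leaving out 1 library gave 2 to 7. The count was 2 without control replicate 1 or IRF8 KO replicate 4. It was 3 without control replicate 3 or 4 or IRF8 KO replicate 1 or 3. No share over all genes is given for these fits, so the lower counts do not show a loss particular to the members. The 11 members whose replicate sets do not overlap became 34 in control and 21 in IRF8 KO alone, where 2 libraries face 2 and separate more easily. Leaving out 1 library gave 11 to 18, the highest without IRF8 KO replicate 4, again with no share over all genes. The 12 other pathway genes called became 25 with the replicate block, beside 28.7% of all genes tested. They became 8 to 11 when 1 library was left out, where no share over all genes is given. Over 38 members and 19 alternatives, 719 log2 fold changes were computed, of which 612 kept direction and side of the threshold, 23 lost and 45 gained a call, and 39 changed sign, and 26 genes never changed sign. The sign changed within replicates 1 and 3 for SLC16A1 (-0.0552), SLC16A3 (0.0970), LDHA (-0.0691), HIF1A (-0.0658), BNIP3L (0.0805), ANKRD37 (0.31) and ADM (2.54). Within replicates 2 and 4 it changed for PFKP (0.18), EPAS1 (-0.12), P4HA1 (-0.38) and NDRG1 (-0.0262), with upper quartile scaling for HIF1A (-0.011), and in edgeR for P4HA1 (-0.011). Leaving out libraries gave ranges that span 0 for SLC16A3 (-0.34 to 0.0160), PFKP (-0.11 to 0.0482), LDHA (-0.0707 to 0.16), HIF1A (-0.11 to 0.12), EPAS1 (-0.28 to 0.61), EGLN1 (-0.12 to 0.14), ANKRD37 (-0.67 to 0.28), P4HA1 (-0.0779 to 0.42) and ADM (-0.999 to 1.20). None of these was called in the fit of all 8 libraries, and the cause was not tested. The replicate block ended no call of a member. Counting error limits the genes near 10 normalized counts, such as ADM, ANKRD37 and EGLN3.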
